A study of Mus musculus with 7 samples.

Results

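The Slc30 zinc transporters of pancreatic islets in pregnancy were measured as the 10 genes Slc30a1 to Slc30a10, out of 19938 genes on the arrays. They were chosen by name, and each was represented by the 1 probe set that the platform annotation gives to that symbol alone, so all 10 were measured. Islets were isolated on day 15 of pregnancy from female mice of the C57BL/6 strain background that had been mated at 12 to 16 weeks of age. A group of 3 mice had an intact prolactin receptor gene (PrlR+/+), although a genotype field of their labels also carries the words for the null line, and 4 mice were heterozygous for a null allele (PrlR+/-). The islets of each mouse were kept separate and gave 1 Affymetrix array each, with no treatment other than pregnancy. The labels name no tissue-specific driver for the null allele, so the mother may carry it in every tissue. Probe sets of the targeted gene itself were not analysed here, so no check of the genotypes was made on it.

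Zinc transporters of the Slc30 family, also called ZnT proteins, move zinc out of the cytosol, either across the plasma membrane or into organelles. The Slc39 family, the ZIP proteins, moves zinc the other way, and metallothioneins bind it within the cell. Beta cells hold unusually much zinc because insulin is stored with it in crystalline form, and the transporter that fills insulin granules is Slc30a8, a gene known for its link to type 2 diabetes in humans and for a protein that is an autoantigen in type 1 diabetes. The prolactin receptor, which binds prolactin and placental lactogens, is known to help beta cells multiply and secrete more insulin during pregnancy. The comparison asked whether islet transcripts differ when 1 receptor allele is lost.

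All values are log2 array signals as deposited, on which a difference of 1 is a doubling, and they ranged from 1.73 to 13.97 over all probe sets. Signal depends on the probes of each gene as well as on its transcripts, so the order of genes given here is an order of signal and not of transcript number. The median signal of a gene lay between 7.34 and 7.37 on the 7 arrays. Islet identity was checked with hormone genes, which were near the top of the scale: Ins2, an insulin gene, averaged 13.31 ± 0.04 (SD, n = 3) in PrlR+/+ mice, and Gcg of alpha cells 13.49 ± 0.02 (SD, n = 3). The acinar gene Cpa1, a digestive carboxypeptidase, averaged 13.67 ± 0.06 (SD, n = 3) in the same mice, so RNA of exocrine cells was present too. In RNA of whole islets, fewer cells of a type and less RNA per cell cannot be told apart.

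Slc30a8 had the highest signal of the family in both genotypes, followed by the Golgi transporter genes Slc30a5 and Slc30a7, and the lowest signals were those of Slc30a10 and Slc30a2. In PrlR+/+ mice the means ran from 12.25 for Slc30a8 through 10.61 for Slc30a5, 10.48 for Slc30a7, 9.58 for Slc30a9, 9.37 for Slc30a6, 9.31 for Slc30a4, 8.19 for Slc30a1, 7.31 for Slc30a3 and 6.24 for Slc30a10 to 6.22 for Slc30a2. The gap of 1.64 between Slc30a8 and the next gene was far larger than the spread between mice. Slc30a5 and Slc30a7 could not be ordered, because their ranges in PrlR+/+ mice overlapped. The same was true of Slc30a9, Slc30a6 and Slc30a4, and of Slc30a10 and Slc30a2, whereas every other neighbour in the order lay apart. In PrlR+/- mice the order was the same except that Slc30a4 and Slc30a6, whose means differed by 0.0175, changed places. Relative to all genes on the same array, Slc30a8 stood between the 99.1 and 99.3 percentile, Slc30a5 between 91.0 and 94.3, Slc30a1 between 57.1 and 68.6, and Slc30a2 between 30.1 and 36.2.

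**Figure D1:**
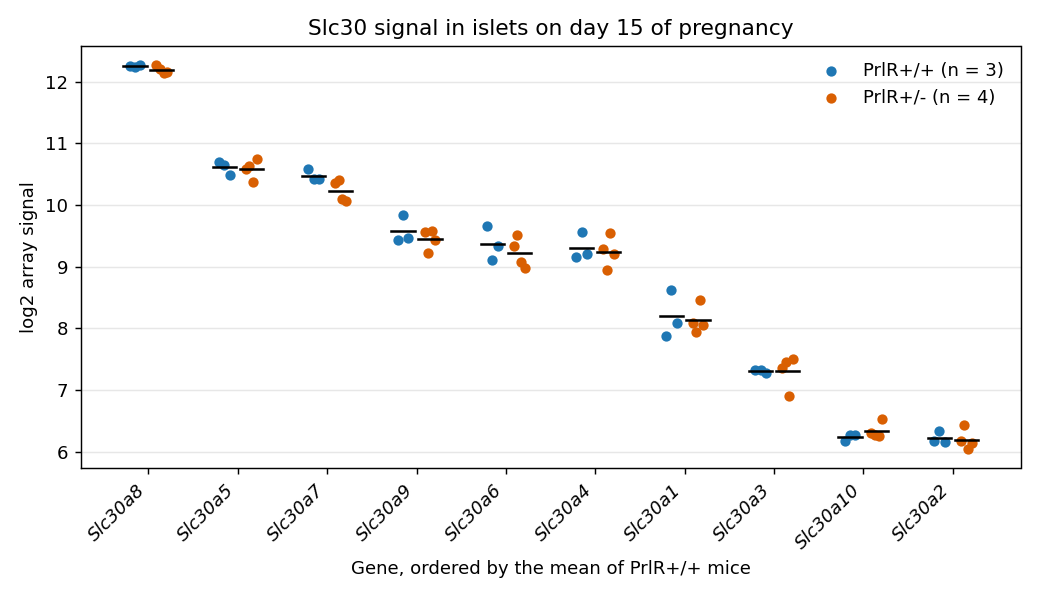
Log2 array signal of the 10 Slc30 genes (vertical axis) in each mouse, with genes on the horizontal axis ordered by the PrlR+/+ mean; points are mice (3 PrlR+/+ in blue, 4 PrlR+/- in orange) and bars are group means. Slc30a8 lies near 12.2 in all 7 mice and is separated from every other member, and Slc30a7 is the gene whose PrlR+/- points all lie below the PrlR+/+ points.

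None of the 10 genes passed the test between genotypes. Differences are PrlR+/- minus PrlR+/+ from limma, fitted over all 19938 genes with Benjamini-Hochberg adjustment, and 0 members had an adjusted p under 0.05. Over all genes 0% passed (0 of 19938; the smallest adjusted p was 0.99), and 438 genes, or 2.2%, had an unadjusted p under 0.05, of which 0 were Slc30 members. The mean was lower in PrlR+/- mice for 9 of 10 members, with a median difference of -0.057, beside 43.7% of all genes with a lower mean and a median of 0.014. Without PrlR+/+ 2 the median of the members was 0.005, so the lean to the lower side depended on that mouse. For all 10 genes the 95% interval of the difference held 0. The whole interval also lay within 1.5-fold in both directions for all 10 genes, and did so for 89.9% of all genes. Precision is limited by having only 3 and 4 arrays.

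**Figure D2:**
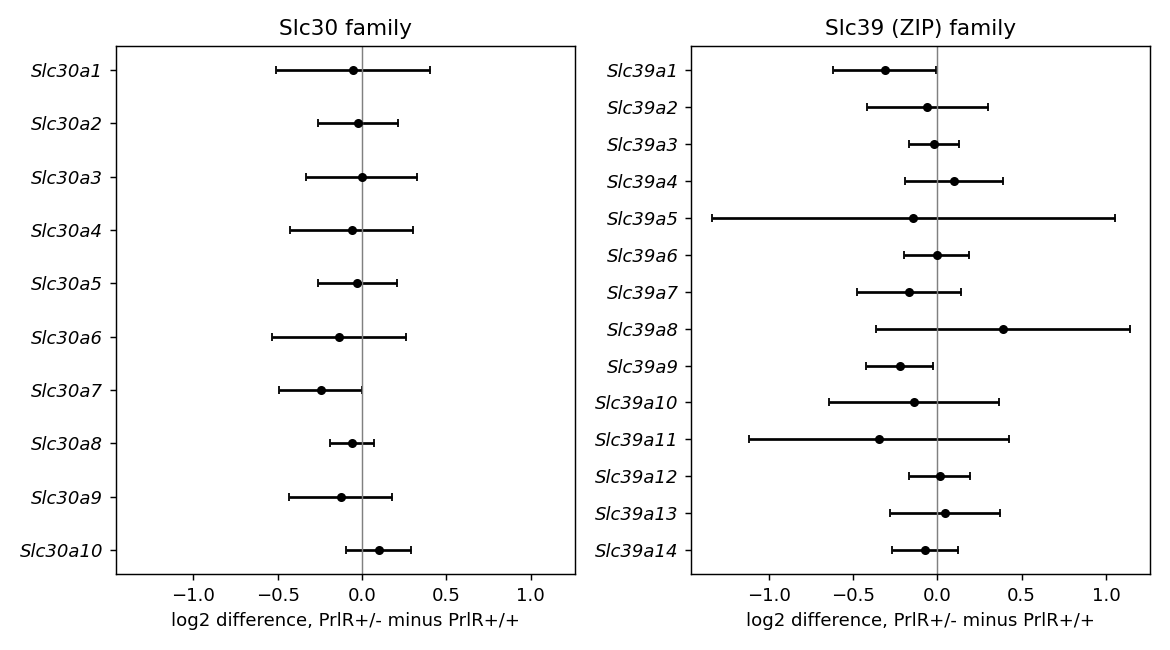
Log2 difference, PrlR+/- minus PrlR+/+, with its 95% interval from limma (horizontal axis) for each Slc30 gene (left) and each Slc39 gene (right). Every Slc30 interval reaches 0, the upper end for Slc30a7 being 0.000939, and the intervals of Slc39a1 and Slc39a9 end just below 0.

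Among the transporters of secretory vesicles, Slc30a8 (probe set 10424086) was measured at 12.25, 12.24 and 12.27 across PrlR+/+ mice 1 to 3, and 12.27, 12.21, 12.14 and 12.16 across PrlR+/- mice 1 to 4. PrlR+/- 3 and PrlR+/- 4 were the lowest, but PrlR+/- 1 equalled the highest PrlR+/+ mouse and the groups overlapped. The difference was -0.06 ± 0.06 (SE), a ratio of 0.96 with a 95% interval from 0.877 to 1.05 (limma, adjusted p = 0.99). Its pooled SD between mice was 0.046, a value under which only 6.02% of genes lay, against a median of 0.135 over all genes. Whether array signal understates differences at this height was not tested. Slc30a3, which loads zinc into synaptic vesicles of neurons, read 7.32, 7.32 and 7.28 across PrlR+/+ mice 1 to 3, and 7.35, 7.46, 6.91 and 7.50 across PrlR+/- mice 1 to 4. PrlR+/- 3 lay below all others and the other PrlR+/- mice above all PrlR+/+ mice. Group means were 7.31 ± 0.02 (SD, n = 3) for PrlR+/+ and 7.31 ± 0.27 (SD, n = 4) for PrlR+/-, and without PrlR+/- 3 the difference was 0.13 in place of -0.00167.

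Slc30a5, Slc30a6 and Slc30a7 serve the early secretory pathway, where the proteins of Slc30a5 and Slc30a6 work as a heteromer and that of Slc30a7 as a homomer to supply zinc to enzymes such as alkaline phosphatase. Slc30a7 (probe set 10501593) had the largest difference of the 10 members. It read 10.59, 10.42 and 10.42 across PrlR+/+ mice 1 to 3, and 10.35, 10.41, 10.10 and 10.07 across PrlR+/- mice 1 to 4. Every PrlR+/- mouse was below every PrlR+/+ mouse, yet PrlR+/- 2 missed overlap by 0.01, the last deposited decimal, and PrlR+/- 3 and PrlR+/- 4 carried most of the distance. The difference was -0.24 ± 0.10 (SE), a ratio of 0.844 with a 95% interval from 0.712 to 1.001 (limma, unadjusted p = 0.0507, adjusted p = 0.99). Groups that did not overlap were found for 1 of 10 members and for 2.24% of all genes, and in the lower direction for 1.21%. A count of 1 gene does not set the family apart from the rest.

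Slc30a5 read 10.70, 10.65 and 10.49 across PrlR+/+ mice 1 to 3, and 10.58, 10.63, 10.38 and 10.75 across PrlR+/- mice 1 to 4, where the highest and the lowest mouse were both PrlR+/-. Its difference was -0.03 ± 0.10 (SE; limma, adjusted p = 0.99). Its partner Slc30a6 read 9.66, 9.11 and 9.33 across PrlR+/+ mice 1 to 3, and 9.33, 9.52, 9.08 and 8.98 across PrlR+/- mice 1 to 4. The spread of Slc30a6 was wider than that of Slc30a5, with PrlR+/+ 1 highest and PrlR+/- 4 lowest, and the groups overlapped. Its difference of -0.14 ± 0.17 (SE; limma, adjusted p = 0.99) was 0.0075 without PrlR+/+ 1. The 2 partners of the heteromer did not share their extreme mice: PrlR+/- 4 was the highest for Slc30a5 and the lowest for Slc30a6.

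Slc30a4 and Slc30a2 encode transporters of endosomal, lysosomal and secretory compartments that are known from the lactating mammary gland, a tissue under prolactin control, and Slc30a2 is also known from pancreatic acinar cells. Slc30a4 read 9.16, 9.56 and 9.20 across PrlR+/+ mice 1 to 3, and 9.29, 8.95, 9.54 and 9.20 across PrlR+/- mice 1 to 4. PrlR+/+ 2 and PrlR+/- 3 stood above the other mice, one in each genotype, and the difference was -0.06 ± 0.16 (SE; limma, adjusted p = 0.99). Slc30a2 read 6.17, 6.33 and 6.16 across PrlR+/+ mice 1 to 3, and 6.17, 6.43, 6.04 and 6.14 across PrlR+/- mice 1 to 4. It was highest in PrlR+/- 2 and PrlR+/+ 2, and the groups overlapped, with a difference of -0.03 ± 0.10 (SE; limma, adjusted p = 0.991). The same mice had the highest mean of the 10 measured acinar markers, at 12.48 in PrlR+/- 2 and 12.30 in PrlR+/+ 2, against 11.93 to 12.24 in the others. PrlR+/- 3 had the next highest acinar mean, 12.24, but the lowest Slc30a2 value, 6.04. With the acinar mean as a covariate the difference of Slc30a2 was -0.0915, and it remained short of the threshold. The part of acinar RNA in the Slc30a2 signal itself was not tested, and no detection call was used to tell a signal this low from background.

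At the plasma membrane, Slc30a1 is the general zinc exporter, and its gene is induced by zinc through the metal-sensing factor Mtf1, as are the metallothionein genes. Slc30a1 (probe set 10352777) read 7.87, 8.62 and 8.09 across PrlR+/+ mice 1 to 3, and 8.09, 7.94, 8.46 and 8.06 across PrlR+/- mice 1 to 4. PrlR+/+ 2 and PrlR+/- 3 were again the highest, and the groups overlapped along most of their range. The difference was -0.06 ± 0.19 (SE; limma, adjusted p = 0.99), and its pooled SD of 0.30 was larger than that of 92.6% of genes and the largest in the family. Slc30a10, known chiefly as a manganese exporter, read 6.18, 6.27 and 6.27 across PrlR+/+ mice 1 to 3, and 6.31, 6.27, 6.25 and 6.53 across PrlR+/- mice 1 to 4. It was the one member with a higher mean in PrlR+/- mice, by 0.10 ± 0.08 (SE; limma, adjusted p = 0.99), and without PrlR+/- 4 the difference was 0.0367. On that array the lower quartile of all genes was 5.82, against 5.62 to 5.73 on the others. Slc30a2, of similar signal, was not raised in PrlR+/- 4, at 6.14. The part of the array in the Slc30a10 value was not tested.

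Slc30a9, whose protein is described in mitochondrial zinc export and as a nuclear coactivator, read 9.43, 9.84 and 9.46 across PrlR+/+ mice 1 to 3, and 9.56, 9.23, 9.58 and 9.43 across PrlR+/- mice 1 to 4. PrlR+/+ 2 was the highest mouse, and without it the difference of -0.13 ± 0.13 (SE; limma, adjusted p = 0.99) was 0.005.

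Several members shared their highest or lowest mice, also between mice of 1 genotype. Slc30a1, Slc30a4 and Slc30a9 had their highest values in PrlR+/+ 2 and PrlR+/- 3, a pattern seen in 3 of 10 members and in 6.96% of all genes. It was noticed after the values were seen and was not tested. For Slc30a9 the second place was held by a margin of 0.02 only. Mt2, a metallothionein, shared the pattern, with 13.02 in PrlR+/+ 2 and 13.20 in PrlR+/- 3 against 12.68 to 12.98 in the other mice. Mt1 was highest in PrlR+/- 3 at 12.92, followed by PrlR+/- 4 at 12.73 and PrlR+/+ 2 at 12.58, and lowest in PrlR+/- 1 at 11.94. In no member were these the lowest mice, a pattern of 5.9% of all genes, but among the ZIP genes they were the lowest for Slc39a2, Slc39a12 and Slc39a13 and the highest for Slc39a8 alone. In 4 of 10 members, Slc30a2, Slc30a6, Slc30a7 and Slc30a8, the lowest values were in PrlR+/- 3 and PrlR+/- 4, as in 6.99% of all genes. This too was noticed after the values were seen and was not tested. The margin was narrow for Slc30a2, at 6.14 in PrlR+/- 4 against 6.16 in PrlR+/+ 3. It was narrow for Slc30a6 as well, at 9.08 in PrlR+/- 3 against 9.11 in PrlR+/+ 2. The array of PrlR+/- 3 also had the widest spread of all genes, with an interquartile range of 3.45, and that of PrlR+/- 4 the narrowest, at 3.15. The part of these array differences in the shared pattern was not tested.

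**Figure D3:**
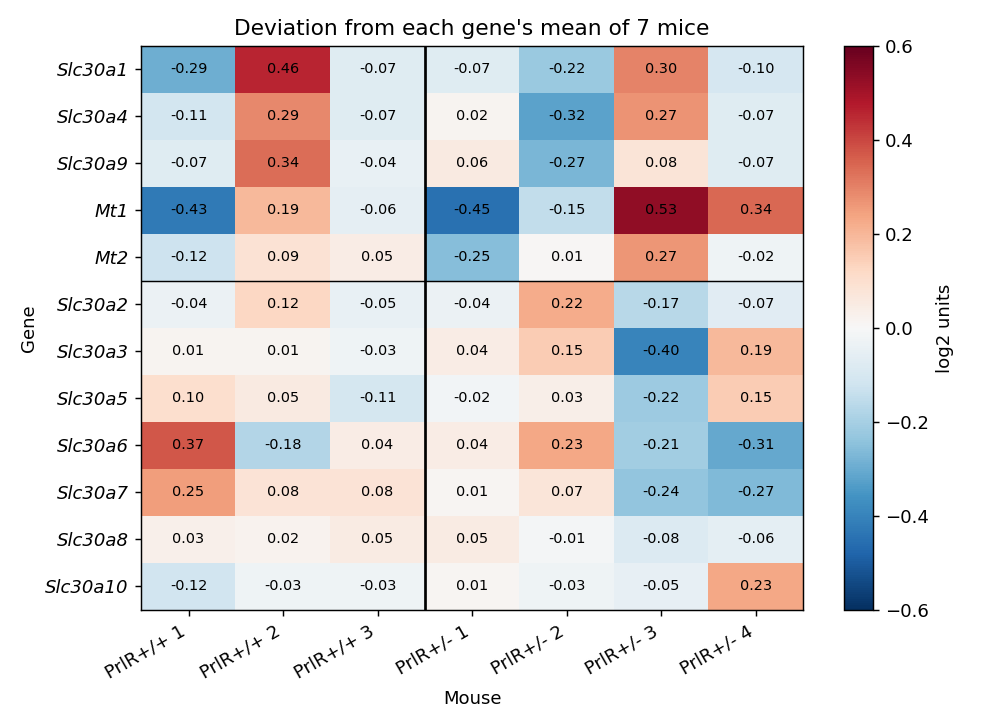
Deviation of log2 signal from each gene's mean of 7 mice, by gene (rows) and mouse (columns, PrlR+/+ left and PrlR+/- right of the line), red above and blue below the mean. Slc30a1, Slc30a4 and Slc30a9 are above their means in PrlR+/+ 2 and PrlR+/- 3, while Slc30a2, Slc30a6, Slc30a7 and Slc30a8 are below theirs in PrlR+/- 3 and PrlR+/- 4.

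The promoters of Slc30a1, Mt1 and Mt2 are shown as those of known targets of Mtf1, and other genes of this set may be targets too. They were picked after their high values in overlapping mice were seen. The windows run from 250 bases before to 50 bases after the gene start in RefSeq (GRCm38.p6), 5′ to 3′ on the plus strand, at chr1:191906531-191906830 for Slc30a1, chr8:94178839-94179138 for Mt1 and chr8:94172368-94172667 for Mt2. Capitals mark the cores of the metal response element to which Mtf1 binds, TGCACNC or TGCGCNC on either strand, where N is any base.
Slc30a1: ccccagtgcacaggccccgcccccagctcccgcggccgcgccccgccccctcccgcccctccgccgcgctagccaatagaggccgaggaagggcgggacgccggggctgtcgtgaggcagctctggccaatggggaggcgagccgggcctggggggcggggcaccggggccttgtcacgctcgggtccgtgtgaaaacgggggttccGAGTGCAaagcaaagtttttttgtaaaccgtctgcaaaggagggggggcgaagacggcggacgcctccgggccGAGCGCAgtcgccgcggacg
Mt1: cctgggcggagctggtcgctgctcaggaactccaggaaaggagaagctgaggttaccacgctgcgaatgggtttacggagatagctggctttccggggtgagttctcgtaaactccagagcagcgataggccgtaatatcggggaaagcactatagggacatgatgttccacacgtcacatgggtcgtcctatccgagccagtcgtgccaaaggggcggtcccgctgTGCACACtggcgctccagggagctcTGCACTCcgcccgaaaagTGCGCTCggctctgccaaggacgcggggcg
Mt2: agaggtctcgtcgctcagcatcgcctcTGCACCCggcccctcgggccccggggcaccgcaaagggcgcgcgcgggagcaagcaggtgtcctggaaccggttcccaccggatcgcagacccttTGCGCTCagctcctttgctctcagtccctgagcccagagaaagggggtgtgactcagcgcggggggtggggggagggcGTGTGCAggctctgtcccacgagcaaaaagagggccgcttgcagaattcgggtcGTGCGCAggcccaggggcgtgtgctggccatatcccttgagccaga
Slc30a1 held 2 such cores, Mt1 held 3 and Mt2 held 4. The table gave 10 windows for 9 of the 10 Slc30 genes, with 2 for Slc30a3 and none for Slc30a8. At least 1 core was found in 6 of the 10 windows: those of Slc30a4 and Slc30a10 held 3 each, those of Slc30a1 and Slc30a2 held 2, and that of Slc30a5 and the first of Slc30a3 held 1. Matches that overlap on opposite strands were counted separately. The window of Slc30a9, which had the same highest mice as Slc30a1 and Slc30a4, held 0 cores. Slc30a2 and Slc30a10, without that pattern, did hold cores. A link between cores and shared mice was not tested. Among all 32851 promoter windows of the table, 25.7% held either core, 12.6% the first and 15.4% the second. The cores are short and rich in G and C, base composition was not matched, and a match is not a binding site. The sequence TTCNNNGAA, which STAT factors bind, was found in 0 of the 10 windows and in 8.3% of all windows. That says only that these letters are not in these windows.

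The genes most like Slc30a8 in their values across mice were sought among 5982 genes of at least moderate signal and spread. Cish, which encodes a feedback inhibitor of cytokine receptors that STAT5 induces, came first, with Pearson r = 0.954 and Spearman rho = 0.937 over 7 arrays, followed by Micos10 of the mitochondrial inner membrane (r = 0.952) and Ndufs6 of respiratory complex I (r = 0.951). Cish read 11.72, 11.50 and 11.74 across PrlR+/+ mice 1 to 3, and 11.52, 11.30, 10.93 and 11.04 across PrlR+/- mice 1 to 4. As with Slc30a8, PrlR+/- 3 and PrlR+/- 4 were lowest and PrlR+/- 1 lay within the PrlR+/+ range. The scale of the change was unlike. Cish differed between genotypes by -0.46 ± 0.15 (SE) by limma (unadjusted p = 0.0168, adjusted p = 0.99), against -0.06 ± 0.06 (SE) for Slc30a8, whose range over the 7 mice was 0.13. Without PrlR+/- 3 and PrlR+/- 4, the mice farthest from the Slc30a8 median, r over the 5 that remained was 0.764 with Cish, 0.89 with Micos10 and 0.658 with Ndufs6, so Cish no longer came first of the 3. These are the highest of 5982 values from arrays that share their normalization, so they are given as a description with no p.

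**Figure D4:**
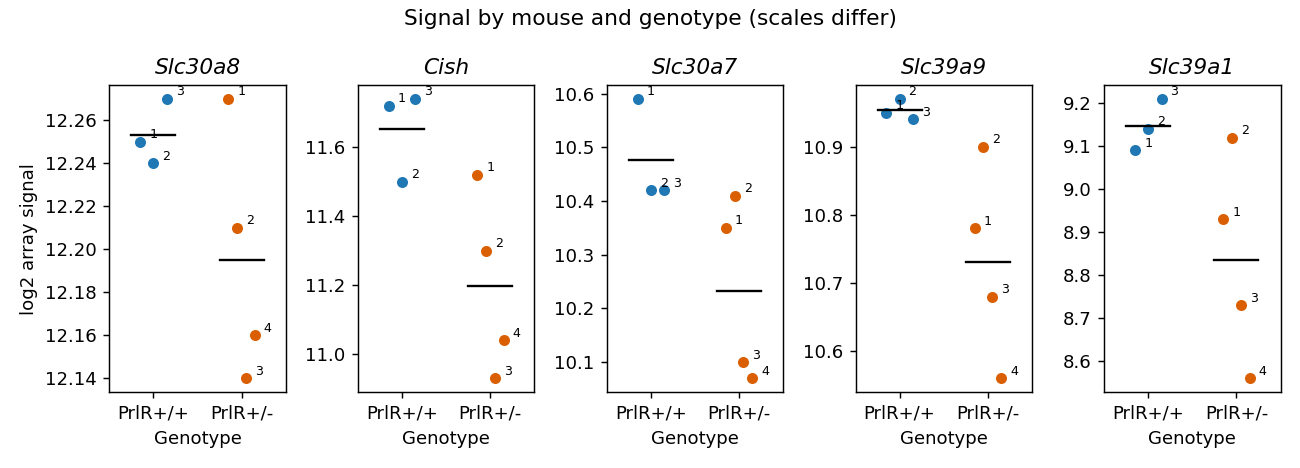
Log2 array signal (vertical axes, scales differ) by genotype for Slc30a8, Cish, Slc30a7, Slc39a9 and Slc39a1; points are mice with their number and bars are group means. In all 5 genes the PrlR+/- 3 and PrlR+/- 4 points are the lowest of their group, and Slc30a7 and Slc39a9 are the ones in which the groups do not overlap.

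The ZIP importers of the Slc39 family were compared as the counterpart of the Slc30 genes. None of the 14 passed in either direction by limma, 2 had an unadjusted p under 0.05, and 10 had lower and 4 higher means in PrlR+/- mice, with a median difference of -0.065. Over all genes the share with an unadjusted p under 0.05 was 2.2%, and 43.7% had a lower mean. With array weights the ZIP median was 0.00477, so its direction turned, and without both PrlR+/+ 2 and PrlR+/- 3 it was -0.00667. Slc39a9, a transporter of the Golgi and cell surface, read 10.95, 10.97 and 10.94 across PrlR+/+ mice 1 to 3, and 10.78, 10.90, 10.68 and 10.56 across PrlR+/- mice 1 to 4. All PrlR+/- mice were lower, with a difference of -0.22 ± 0.09 (SE; limma, adjusted p = 0.99), and it was the 1 ZIP gene of 14 whose groups did not overlap, beside 2.24% of all genes. Slc39a1, a plasma membrane importer, read 9.09, 9.14 and 9.21 across PrlR+/+ mice 1 to 3, and 8.93, 9.12, 8.73 and 8.56 across PrlR+/- mice 1 to 4. PrlR+/- 2 lay within the PrlR+/+ range, and the difference was -0.31 ± 0.13 (SE; limma, adjusted p = 0.99). A second probe set of Slc39a1, with a lower mean, entered only where probe sets were averaged.

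Other importers varied more between mice than between genotypes. Slc39a5, a ZIP protein of intestine and exocrine pancreas, read 8.76, 9.60 and 8.72 across PrlR+/+ mice 1 to 3, and 8.76, 10.23, 8.57 and 7.98 across PrlR+/- mice 1 to 4. Its highest values were in PrlR+/- 2 and PrlR+/+ 2, the mice with the highest acinar marker means given above, and the difference was -0.14 ± 0.51 (SE; limma, adjusted p = 0.99). Slc39a14, an importer of zinc and iron, differed by -0.07 ± 0.08 and the intestinal importer gene Slc39a4 by 0.10 ± 0.12 (SE). Endoplasmic reticulum and Golgi importer genes Slc39a7 and Slc39a13 were at 10.29 ± 0.25 and 10.12 ± 0.25 (SD, n = 3) in PrlR+/+ mice.

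Of 8 genes for metallothioneins and zinc regulation, 0 passed in either direction by limma, 3 had lower and 5 higher means, and the median difference was 0.05. Mt1 averaged 12.29 ± 0.31 (SD, n = 3) with both receptor alleles and 12.46 ± 0.45 (SD, n = 4) with 1 allele, and Mt2 12.94 ± 0.11 and 12.93 ± 0.21, with the groups overlapping for both. Mtf1 itself differed by 0.05 ± 0.09 (SE). Tmem163 encodes a zinc efflux transporter and was not among the Slc30 members, which were chosen by name. It read 12.11, 12.03 and 12.20 across PrlR+/+ mice 1 to 3, and 12.05, 12.05, 11.77 and 11.54 across PrlR+/- mice 1 to 4. PrlR+/- 1 and PrlR+/- 2 lay within the PrlR+/+ range and the other PrlR+/- mice below it, and the difference was -0.26 ± 0.13 (SE; limma, adjusted p = 0.99). The zinc-sensing receptor gene Gpr39 differed by 0.20 ± 0.16 (SE).

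Markers of the cell types in islet preparations were given beside these values. Over 11 lists, 57 marker genes were measured and 0 passed by limma, while 3 had an unadjusted p under 0.05, beside 2.2% of all genes, and 3 had groups that did not overlap, beside 2.24%. They were Emcn of endothelial and Cd3d of T cells in both counts, Cdh5 of endothelial cells in the first and Sox9 of duct cells in the second. The mean of 9 beta cell markers ranged from 12.16 to 12.34 over PrlR+/+ mice and from 12.01 to 12.28 over PrlR+/- mice. PrlR+/- 4 had the lowest beta cell mean, and Slc30a6, Slc30a7, Slc39a9, Slc39a1 and Tmem163 were lowest there. Slc30a3, Slc30a5 and Slc30a10 were instead highest in that mouse, at 7.50, 10.75 and 6.53. Slc30a8 was lowest in PrlR+/- 3, at 12.14. The acinar means ranged from 11.93 to 12.30 and from 12.05 to 12.48. The acinar marker of lowest signal was Ptf1a, a transcription factor, at a mean of 6.66 and at 6.17 in PrlR+/- 4. The means of 4 alpha cell markers did not overlap between genotypes, at 10.98 to 11.01 over PrlR+/+ and 11.04 to 11.10 over PrlR+/- mice, nor did those of 4 Schwann cell and neuron markers, at 6.94 to 7.003 and 7.01 to 7.21. In either list, 0 single genes had groups that did not overlap. How often list means fail to overlap among genes at large was not worked out. Median differences of the lists were -0.041 for beta, 0.065 for alpha, 0.111 for delta, 0.034 for PP, 0.126 for acinar, 0.053 for duct, 0.11 for endothelial, 0.023 for myeloid, 0.091 for stellate, 0.148 for Schwann and neuron, and 0.087 for lymphocyte markers. The part of cell composition in the differences of the zinc genes was not tested beyond the acinar covariate.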

How the data were processed

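The authors deposited a table of log2 expression values with 2 decimals, 1 column per mouse; no label states the scale, which was inferred from the range. Affymetrix Expression Console 1.2.0.20 produced them, per the submitters' processing notes. How background was corrected, arrays normalized and probes summarized is not given in the sources used here. Per the labels' protocols, 250 ng of RNA with an integrity number above 8.5 was labelled for each array.

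Of 35556 probe sets, 21789 with 1 gene symbol in the platform annotation were kept (1621 had several, 12146 none), and the probe set with the highest mean stood for each of the 999 genes with more than 1. Entrez identifiers of 21698 probe sets matched RefSeq, which changed 0 symbols. No filter or further normalization was applied. limma 3.58.1 in R 4.3.3 (lmFit, eBayes, 2-sided) was fitted on all 19938 genes and 7 mice without covariates, with an adjusted p under 0.05 as the threshold. Arrays have no read depth, and no detection calls were used. On simulated data of 19938 genes for this comparison, 5 runs called 56.1% of genes changed 1.5-fold, 85.1% of those changed 2-fold and 97.6% of those changed 4-fold. The simulated noise was normal and independent between genes, and all sizes of change were mixed in each run. Differences between mice that many genes share were not simulated, so these shares need not hold for the real arrays.

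The members and lists were chosen with earlier results of these data known. Lists were the ZIP importers, metallothioneins and zinc regulation, granule zinc and insulin storage, and 11 sets of cell type markers. Named were all Slc30 genes, the 2 genes of smallest p in each zinc list, genes chosen by name (Mt1, Mt2, Mtf1, Slc39a4, Slc39a5, Slc39a14, Ins2, Gcg, Cpa1), and the 3 genes of highest r with Slc30a8 among those with a mean at or above the 40th percentile and a spread at or above the median of those. Slc39a2, Slc39a7, Slc39a12, Slc39a13, Iapp, Chga, Chgb, Mt4 and the other single marker genes were named after their values were seen. Ins1, also chosen by name, was not analysed here. Scan batches were not analysed here.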

Additional observations from a re-analysis of the deposited data

Results flagged for a closer look

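Among 4 PrlR+/- mice, a value was singled out when its gap to the nearest of the others took up more of the group's range than Dixon's critical value for 4 samples allows, a limit that chance passes in about 5% of groups. The 115 groups examined were the 100 genes that are Slc30 members, measured genes of any list or the 3 genes most like Slc30a8, and the 15 list means. Of these, 12 were singled out, with 0 Slc30 genes among them. Mtf1, the metal-sensing transcription factor, was at 9.48 in PrlR+/- 3, against 9.34 to 9.35 in the other PrlR+/- mice. Mt4, a metallothionein of squamous epithelia, was at 6.26 in PrlR+/- 4, against 5.88 to 5.90, and Chgb, a granin, at 12.77 in PrlR+/- 2, against 12.87 to 12.88.

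The mean of the beta cell markers was 12.01 in PrlR+/- 4, against 12.23 to 12.28. In that mouse the transcription factor genes Mafa and Pdx1 were at 9.54 and 10.85, against 10.32 to 10.36 and 11.15 to 11.17, and the incretin receptor gene Glp1r at 12.90, against 13.25 to 13.31. Slc2a2 at 11.31 and Ucn3 at 12.16 were also the lowest of the 4, though not singled out. Some beta cell markers were not low there: Ins2 at 13.33 was the highest of the 4, and Iapp at 13.52 and Nkx6-1 at 11.27 were tied for it. The mean of 3 delta cell markers was 10.72 in the same mouse, against 11.12 to 11.19. Hhex, a delta cell transcription factor, was at 6.75, against 7.57 to 7.73, whereas Sst, the hormone gene, at 13.64 lay within the range of the others. PrlR+/+ 2 had a still lower delta cell mean of 10.66.

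The T cell gene Cd3d was at 5.13 in PrlR+/- 4, against 4.96 in each of the others. In PrlR+/- 2 the duct genes Sox9 and Muc1 were at 8.20 and 10.12, against 7.73 to 7.76 and 8.73 to 8.95.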

How the results depend on the processing

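The count of genes past the threshold was 0 over all genes and 0 among Slc30 genes in each of 18 alternatives: scalings, a filter on dim genes (which leaves out Slc30a2 and Slc30a10), the mean of all probe sets, other variance models, array weights, the replicate block, an acinar covariate, each mouse left out, a looser threshold of 0.10, and, chosen after the data were seen, leaving out both PrlR+/+ 2 and PrlR+/- 3. Unadjusted p values under 0.05 numbered from 247 without PrlR+/+ 3 to 1132 with array weights, against 438. Slc30a7, Slc30a8 and Slc30a10 kept their direction in every alternative run, Slc30a7 between -0.303 and -0.178 (limma, unadjusted p from 0.0217 to 0.167, adjusted p from 0.818 to 1). Directions of other members turned; the cause was not tested. With array weights the differences were 0.0383 for Slc30a1, 0.01765 for Slc30a2, 0.0219 for Slc30a3 and 0.0214 for Slc30a4, and the medians were 0.00473 for the Slc30 genes, -0.0174 for the metallothionein list and 0.00477 for the ZIP genes. Quantile normalization gave 0.000714 for Slc30a3. Without both PrlR+/+ 2 and PrlR+/- 3 the differences were 0.05 for Slc30a1, 0.0817 for Slc30a2, 0.137 for Slc30a3 and 0.0583 for Slc30a5, with a Slc30 median of 0.00833 and a ZIP median of -0.00667. With each mouse left out in turn, Slc30a1 ran from -0.2175 to 0.1575, Slc30a2 from -0.1033 to 0.03, Slc30a3 from -0.0667 to 0.13, Slc30a4 from -0.16 to 0.065, Slc30a5 from -0.09 to 0.04, Slc30a6 from -0.2675 to 0.0075, Slc30a9 from -0.20 to 0.005, the Slc30 median from -0.09875 to 0.005, the metallothionein median from -0.0175 to 0.0683 and the ZIP median from -0.11 to -0.0238. With dim genes left out the ZIP median was -0.1375. The order of the family over all 7 mice held in full in 8 of 11 alternatives, and in the other 3 Slc30a4 and Slc30a6 changed places.

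Whether the replicate numbers of the labels pair the mice is not known. Deviations of same-numbered mice from their group means correlated at 0.0896, -0.386 and -0.0287 over all genes. No PrlR+/+ mouse correlated best with the PrlR+/- mouse of its number. Correlations between single mice in groups of 3 and 4 cannot settle whether they were paired. With the replicate block, which leaves PrlR+/- 4 without a partner, Slc30a7 was at -0.19, the Slc30 median was -0.0517, and 0 genes passed.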

Other observations

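Cargo and enzymes of the insulin granule, which Slc30a8 fills with zinc, were measured as 10 of 13 listed genes, and 0 passed by limma; 4 had lower and 6 higher means in PrlR+/- islets, with a median difference of 0.036. Scg2, a granin, differed by 0.13 ± 0.13 and Pcsk1, the prohormone convertase that starts proinsulin cleavage, by -0.09 ± 0.10 (SE). Ins2 differed by -0.02 ± 0.05 (SE). Iapp, which encodes amylin, and Chga, a granin, averaged 13.42 ± 0.03 and 13.30 ± 0.02 (SD, n = 3) in PrlR+/+ islets, close to the highest deposited value of 13.97.

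Slc39a8, an importer of zinc and manganese, had the largest positive difference of the ZIP genes without passing, at 0.39 ± 0.32 (SE; limma, adjusted p = 0.99). It read 6.23, 6.96 and 5.89 across PrlR+/+ mice 1 to 3, and 6.20, 6.57, 7.29 and 6.94 across PrlR+/- mice 1 to 4. Its highest values were in PrlR+/- 3 and PrlR+/+ 2, the mice in which Slc30a1 and Slc30a4 were highest too, but PrlR+/- 4 was 0.02 below PrlR+/+ 2. Slc39a11, a Golgi transporter, had the largest negative difference, -0.35 ± 0.33 (SE), with 7.89 in PrlR+/- 4 and 9.37 in PrlR+/- 2. Both genes were named after their values were seen.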
